A study of Homo sapiens with 24 samples.

Results

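The mitochondrial respiratory chain passes electrons from metabolic fuels to oxygen through complexes I to IV, and complex V, the ATP synthase, uses the resulting proton gradient to make ATP. Mitochondrial DNA codes for a few of its subunits, and the remainder are coded in the nucleus and imported; the genes described here are those nuclear ones. Human pluripotent stem cells draw heavily on glycolysis, and the balance between glycolysis and respiration is known to shift as they leave the pluripotent state. Members were the protein-coding rows of the gene table whose symbols match the standard names of the subunits (NDUFA, NDUFB, NDUFC, NDUFS and NDUFV genes, UQCR genes, SDHA to SDHD, 10 COX genes, ATP5 genes, CYC1 and CYCS). This gave 82 genes of 28301 features, of which 16871 were protein-coding. The rule goes by name and uses no expression value, but it was set with earlier results of these data known. They comprise 36 genes of complex I, 4 of complex II, 9 of complex III, 11 of complex IV (with NDUFA4, which carries a complex I name but is assigned to complex IV), 15 of complex V and the electron carrier cytochrome c (CYCS). The other 6 carry matching names but code for no standard subunit: UQCRHL and ATP5EP2 are retrocopies, ATP5L2 is a copy of ATP5L, ATP5J2-PTCD1 is a readthrough transcript, and ATP5S and ATP5SL (now DMAC2L and DMAC2) are not subunits.

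Poly(A) RNA was sequenced in 8 groups of 3 libraries from H9, an established human embryonic stem cell line grown in E8 medium. Engineered (optoWnt) cells carried a fusion of Cry2, a plant photoreceptor that forms clusters when it absorbs blue light, with a part of the Wnt co-receptor LRP6, and mCherry; the wild-type cells had eGFP transcripts in these data. In monoculture the groups were Cry2 dark, Cry2 light, wt dark and wt light. In co-culture at equal parts the engineered cells were sorted as mCherry dark and mCherry light, and their wild-type neighbours as GFP dark and GFP light. Light meant 0.8 µW/mm2 for 48 hours, and each library came from 2 to 3 pooled wells. The labels do not say whether the engineered line is 1 clone, and p-values measure the spread between such pools of wells.

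Assigned reads per library ranged from 28237578 to 34291124 in the dark monocultures, from 45763662 to 54707558 in the illuminated ones and from 31807414 to 56639833 in co-culture. Depth thus moved with light in monoculture, and its part in the results was not tested. The fusion transcript stood at 34166 to 61394 normalised reads in engineered libraries and 219 to 427 in the others. Illumination of Cry2 cells lowered 9 of 10 pluripotency markers, with SOX2 going from 9124 ± 230 to 38.5 ± 5.9 (SD, n = 3), and raised 9 of 10 streak and mesoderm markers, with T (brachyury) going from 5.7 ± 2.8 to 28324 ± 1567. In mCherry cells 9 and 9 of the same lists did so. All groups are labelled as stem cells, and these markers go against that label in the illuminated engineered cells, so light and marker state cannot be told apart there. In GFP light cells 5 of 10 streak markers were higher, T at 119 ± 14 against 4.6 ± 2.4, while 0 were in wt light cells. In mCherry light T stood at 27766 ± 2263. Of 10 pluripotency markers 3 were higher in GFP light (NANOG, DNMT3B and PRDM14) and 1 was lower (TDGF1). Of all genes 4.6% passed in GFP light. Other marker lists were only partly high enough to test in Cry2 light. Of 8 endoderm markers 6 were tested and 4 were higher. FOXA2 (3.3 ± 2.2 in Cry2 dark, 1.4 ± 0.89 in Cry2 light) and HHEX did not pass. Of 8 neural markers 5 were tested, with 4 higher and 1 lower. Among those 4, NES and OTX2 rose only 1.20-fold and 1.25-fold. Of 8 amnion and surface ectoderm markers 6 were tested, with 2 higher and 4 lower. Over all genes tested in Cry2 light 28.1% were higher and 30.4% lower.

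Values are the authors' normalised read counts, that is, reads of a gene divided by 1 size factor per library. They are not divided by gene length, so levels of different genes are compared only per kb of exon. A log2 change is of (value + 1), called where limma's adjusted p over all genes was under 0.05. Of the members, 80 were tested in both cultures, and ATP5L2 (52 reads over all libraries) and ATP5J2-PTCD1 (10 reads) were too low to test. A mean of at least 1000 was reached by 69, and 6 stayed under 100. Exon length here is that of all annotated exons of a gene merged, whether or not these cells use them. A gene with long or rarely used annotated exons therefore ranks too low, and the order below depends on the annotation. Per kb of such exon the highest mean levels were those of ATP5B, the catalytic beta subunit of ATP synthase (19856), NDUFS5 (16097) and UQCRH (7683). Among standard subunits the lowest were NDUFA7 (5.9 per kb), NDUFA13 (13.6) and NDUFV2, a core subunit (16.6), whose exons share 32.3%, 21.0% and 28.4% of their bases with other genes on the same strand in GENCODE 29; the part of that overlap in their counts was not tested.

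Expression of many respiratory genes is known to depend on the factors NRF1, GABP (an ETS-family protein) and YY1, so the promoters were searched for a core of each motif: GCATGCGC for NRF1, CCGGAAG for ETS/GABPA and AAGATGGC for YY1, on both strands, each counted on its own whether or not it overlaps another. RefSeq windows of 300 bases (GRCh38.p14), 250 before to 50 after the gene's start, were matched for 63 of 82 members. The NRF1 core was in 14 of 63 (22.2%), against 3.74% of 22199 protein-coding promoters. An ETS core was in 19 (30.2%, against 12.8%), a YY1 core in 11 (17.5%, against 3.53%) and at least 1 of them in 34 (54.0%, against 18.4%). These are matches of letters, not sites shown to be bound.

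The windows below were chosen after the values were seen. COX7C and SDHA had the largest falls and ATP5E the largest rise among standard subunits called in both cultures, and none of these 3 holds a core. CYCS, ATP5H and NDUFS4 were called in both cultures and hold an NRF1, an ETS (read as its reverse complement) and a YY1 core. SDHB holds all 3 cores and passed in neither light comparison of engineered cells. Capitals mark the cores, and each strand reads 5′ to 3′ along the gene. The windows are chr5:86617691-86617990 (COX7C, plus strand), chr5:218070-218369 (SDHA, plus), chr20:59032286-59032585 (ATP5E, minus), chr7:25125211-25125510 (CYCS, minus), chr17:75046920-75047219 (ATP5H, minus), chr5:53560389-53560688 (NDUFS4, plus) and chr1:17053983-17054282 (SDHB, minus).
COX7C: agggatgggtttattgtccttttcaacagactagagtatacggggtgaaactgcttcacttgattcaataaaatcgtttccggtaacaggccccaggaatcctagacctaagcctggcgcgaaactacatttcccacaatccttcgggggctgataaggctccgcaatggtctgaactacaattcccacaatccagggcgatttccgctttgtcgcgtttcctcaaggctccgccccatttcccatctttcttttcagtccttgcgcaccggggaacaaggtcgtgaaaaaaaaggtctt
SDHA: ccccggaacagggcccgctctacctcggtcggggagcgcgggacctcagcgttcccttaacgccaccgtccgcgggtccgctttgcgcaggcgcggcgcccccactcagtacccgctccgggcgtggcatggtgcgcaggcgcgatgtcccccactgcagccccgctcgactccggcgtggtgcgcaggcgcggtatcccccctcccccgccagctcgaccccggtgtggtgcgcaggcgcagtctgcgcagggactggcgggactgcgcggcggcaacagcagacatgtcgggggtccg
ATP5E: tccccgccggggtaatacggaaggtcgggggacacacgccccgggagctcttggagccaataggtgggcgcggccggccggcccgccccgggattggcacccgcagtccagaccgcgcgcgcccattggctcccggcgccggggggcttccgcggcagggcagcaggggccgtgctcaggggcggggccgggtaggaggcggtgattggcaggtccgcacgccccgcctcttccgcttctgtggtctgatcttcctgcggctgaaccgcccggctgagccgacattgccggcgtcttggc
CYCS: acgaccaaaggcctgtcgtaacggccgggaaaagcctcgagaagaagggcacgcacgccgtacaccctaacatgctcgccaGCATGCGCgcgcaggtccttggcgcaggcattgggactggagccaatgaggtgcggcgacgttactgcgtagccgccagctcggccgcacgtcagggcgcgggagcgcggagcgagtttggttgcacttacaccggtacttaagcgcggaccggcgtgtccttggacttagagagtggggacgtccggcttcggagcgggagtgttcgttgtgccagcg
ATP5H: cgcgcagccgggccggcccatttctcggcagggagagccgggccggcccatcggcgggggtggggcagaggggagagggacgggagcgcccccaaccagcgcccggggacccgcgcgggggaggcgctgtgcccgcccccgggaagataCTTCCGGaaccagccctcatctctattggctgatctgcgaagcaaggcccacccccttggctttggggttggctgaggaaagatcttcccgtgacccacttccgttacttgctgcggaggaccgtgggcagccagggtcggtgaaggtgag
NDUFS4: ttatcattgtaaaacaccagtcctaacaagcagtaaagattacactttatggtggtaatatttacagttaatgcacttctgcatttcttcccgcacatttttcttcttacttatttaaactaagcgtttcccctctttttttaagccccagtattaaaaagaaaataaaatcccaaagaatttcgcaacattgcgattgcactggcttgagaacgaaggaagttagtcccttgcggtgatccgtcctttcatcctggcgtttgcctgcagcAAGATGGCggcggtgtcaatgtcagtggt
SDHB: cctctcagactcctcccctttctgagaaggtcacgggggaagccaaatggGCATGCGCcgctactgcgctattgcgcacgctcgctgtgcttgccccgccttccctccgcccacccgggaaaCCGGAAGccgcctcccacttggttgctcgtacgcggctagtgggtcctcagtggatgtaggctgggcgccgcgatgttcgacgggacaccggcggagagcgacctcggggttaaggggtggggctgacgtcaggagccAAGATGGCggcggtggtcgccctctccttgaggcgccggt

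In the windows shown, the YY1 cores of NDUFS4 and SDHB begin at base 272 and 261 of 300, counted from 1 at the window's 5′ end, that is, after the 250 bases before the start. Of the 12 members called in the same direction in both cultures, 11 had a window, and 3 of those 11 held any of the cores. With groups this small no comparison was made.

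Most respiratory genes moved little when engineered cells were illuminated. In Cry2 cells 6 of 80 members were higher and 16 lower in light than in dark, while over all genes tested 28.1% were higher and 30.4% lower (58.4% in either direction). The members' share past the threshold, 27.5%, was thus under that of all genes, and also under the 64.8% of genes with a mean of at least 1000. Their median change was -0.05 on the log2 scale (all genes -0.01), and 75 of 80 (93.75%) changed by less than 0.5, as did 49.5% of all genes and 68.2% of those with a mean of at least 1000. Light and dark groups did not overlap for 33 members, while 65.7% of all genes were apart in this way. In mCherry cells sorted from co-culture 10 members were higher and 7 lower, while 27.2% and 28.7% of all genes were (55.9% in either direction, 59.7% of genes with a mean of at least 1000). The median there was 0.04, and 73 of 80 (91.25%) changed by less than 0.5, as did 48.0% of all genes and 65.7% of those with a mean of at least 1000. The groups did not overlap for 17 members, while 58.4% of all genes were apart.

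The cultures share no library, and they called the same direction where both called. ATP5E, ATP5H, COX7A2, NDUFB2, NDUFB3 and NDUFS4 were higher in both (24.1% of all genes were), and 6 members, among them ATP5G1, COX5A, COX7C, CYCS and SDHA, were lower in both (25.7% of all genes). No member was called in opposite directions, and 65 of 80 had the same sign. A further 4 were higher in mCherry cells alone past the threshold (ATP5EP2, ATP5J, NDUFA6, SDHC), SDHD was lower there alone, and 10 were lower in Cry2 cells alone (ATP5A1, ATP5B, ATP5I, ATP5S, CYC1, NDUFA3, NDUFA4, NDUFV3, UQCRFS1, UQCRH). Passing in 1 culture does not show a difference between them: the light effect of mCherry minus that of Cry2 passed for 0 of 80 members by limma, with 0 at an unadjusted p under 0.05 (5.01% of all genes) and 0 by edgeR and DESeq2 (0.064% of all genes passed by limma). The remaining 53 passed in neither.

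**Figure D1:**
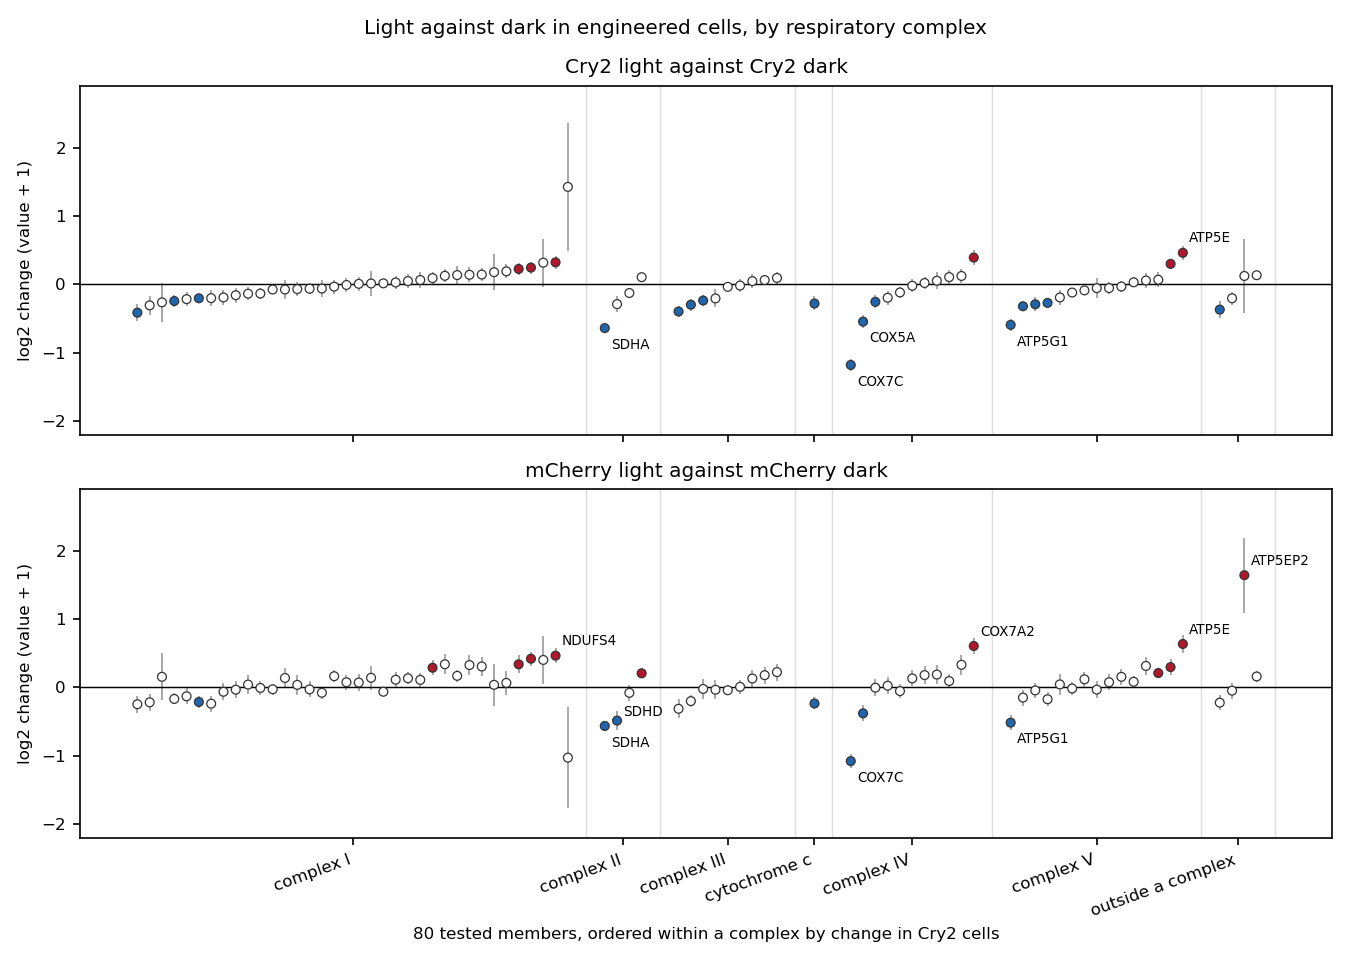
Log2 change in light against dark (y axis, value + 1) of 80 members in Cry2 cells (top) and mCherry cells (bottom), grouped by complex; bars are 1 standard error, filled red or blue points are higher or lower with an adjusted p under 0.05, open points did not pass. COX7C, SDHA and ATP5G1 are low in both panels and ATP5E, COX7A2 and NDUFS4 high in both, while most members lie near 0.

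How many members passed turned on single libraries in which nearly the whole set was shifted. In wt light 2 the value was the highest of its group for 74 of 80 members, with a median log2 deviation of 0.38 from the mean of the other libraries of the group, while the median over all genes was 0.00. In mCherry light a the value was the lowest for 72 (median deviation -0.44, all genes -0.01), and in mCherry light c the highest for 68 (0.32, all genes 0.02). Mitochondrial ribosomal protein genes moved with these 3 libraries, at median deviations of 0.30, -0.37 and 0.29. GFP light showed smaller shifts of the same kind: GFP light a was the lowest for 67 members (median deviation -0.18, all genes -0.02) and GFP light c the highest for 55 (0.12, all genes 0.01). The RNA integrity number of wt light 2 was 9.2, against 9.9 and 9.4 in the other wt light libraries, and mCherry light c was the shallowest of the co-culture; the part of these in the shift was not tested.

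The library wt light 2 enters the Cry2 test through the shared estimate of spread and through the filter on low values. With it 19444 genes were tested, and without it 19318. Without wt light 2, 8 members were higher and 28 lower in Cry2 light (45% past the threshold, while 63.8% of all genes were). Cry2 dark 3 had the lowest RNA integrity number of the monocultures (7.6, against 9.7 to 10 in Cry2 light) and the highest value of its group for 47 members, and wt dark 1 had a GC content of 33.73% where the other monoculture libraries had 50.47% to 51.77%. Without these 2, 4 members were higher and 8 lower in Cry2 light (15%, all genes 54.4%). Without mCherry light a, 31 were higher and 6 lower in mCherry light, with a median of 0.20 (46.25%, all genes 60.4%). Without mCherry light c, 4 were higher and 14 lower, with a median of -0.08 (22.5%, all genes 52.7%). The balance of higher and lower members in co-culture therefore depends on which libraries are kept. Across all fits that leave out 1 library, ATP5E, COX7A2 and NDUFS4 stayed higher and COX7C, SDHA and ATP5G1 stayed lower in both cultures. These calls are of light against dark within engineered cells, and the comparison with wild-type cells, given further below, was weaker for the 3 rises.

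**Figure D2:**
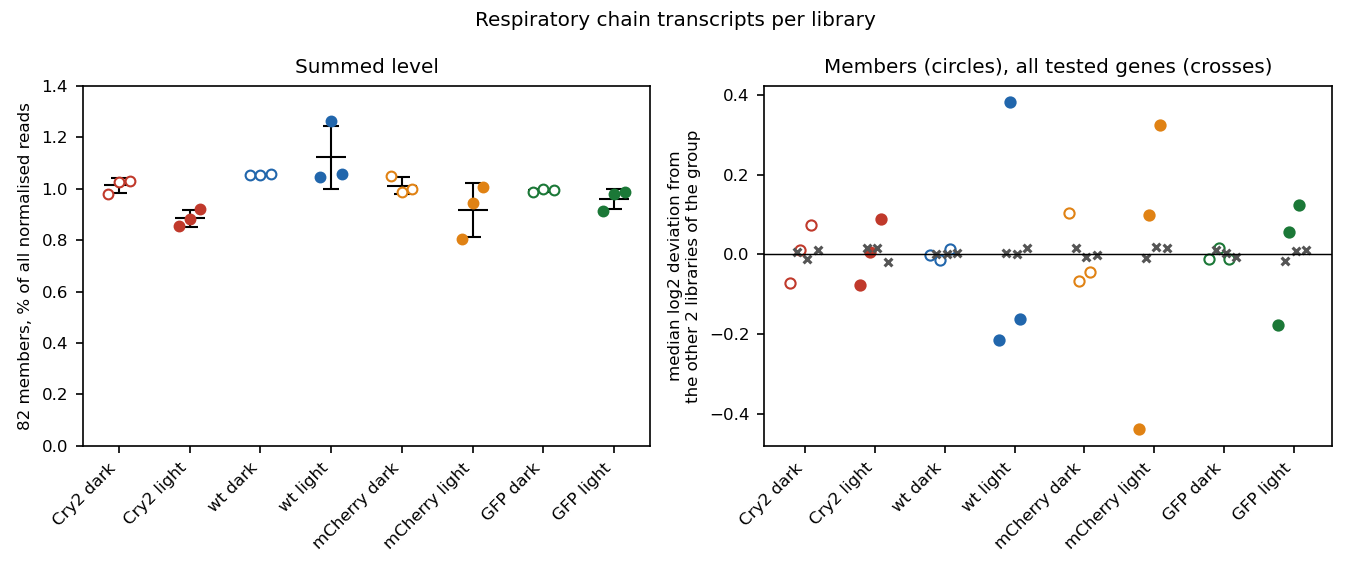
Left, the summed level of the 82 members as a percentage of all normalised reads per library (points; black marks are the mean and SD of 3 libraries). Right, the median log2 deviation of each library from the other libraries of its group for the members (circles) and for all tested genes (crosses). The members of wt light 2 (0.38) and of mCherry light a (-0.44) lie far from 0 while the crosses stay near it.

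As a share of all normalised reads, the members summed to 1.01 ± 0.028% in Cry2 dark and 0.886 ± 0.033% in Cry2 light (SD, n = 3). The Cry2 light libraries lay between 0.855% and 0.921% and the dark ones between 0.980% and 1.03%, so the groups did not overlap. The mean sum itself went from 420206 to 379706 normalised reads, a net change in which some members rose and others fell. The falls of 3 abundant or strongly lowered genes, COX7C, ATP5B and ATP5A1, equalled 64.4% of that net fall. In mCherry cells the mean sum went from 419333 to 415745, and the falls of the same 3 genes equalled 493.8% of the net fall. Such a percentage is therefore not a part of a whole. In mCherry cells the share was 1.01 ± 0.033% in dark and 0.919 ± 0.10% in light, and the groups overlapped. The share was 1.05 ± 0.0019% in wt dark, 1.12 ± 0.12% in wt light, 0.994 ± 0.0069% in GFP dark and 0.960 ± 0.039% in GFP light. A share of bulk RNA cannot tell fewer cells with the transcripts from fewer transcripts per cell.

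In complex I, which takes electrons from NADH, 3 of 36 genes were higher and 3 lower in Cry2 light (8.33% each, where 28.1% and 30.4% of all genes were), and 4 were higher and 1 lower in mCherry light (11.1% and 2.78%, all genes 27.2% and 28.7%). NDUFS4, an accessory subunit that helps to stabilise the NADH-binding module, stood at 1956, 2251 and 1990 in Cry2 dark and at 2366, 2655 and 2720 in Cry2 light. The co-culture values were 2018, 1798 and 1869 in mCherry dark and 2238, 2532 and 3138 in mCherry light. No light library overlapped a dark one in either culture. The rise was 0.32 ± 0.10 (log2 change ± SE, adjusted p = 0.011) in Cry2 cells and 0.46 ± 0.11 (adjusted p = 0.0023) in mCherry cells. NDUFB3 and NDUFB2, accessory subunits of the membrane arm, rose by 0.24 and 0.22 in Cry2 cells and by 0.42 and 0.34 in mCherry cells; the NDUFB2 values of mCherry dark and light overlapped. NDUFA3, an accessory subunit, fell by 0.41 ± 0.12 (adjusted p = 0.0082) in Cry2 cells, against -0.25 ± 0.13 (adjusted p = 0.11) in mCherry cells, and NDUFV3 fell by 0.24 in Cry2 cells, against -0.17. NDUFA6, also accessory, rose by 0.29 ± 0.11 (adjusted p = 0.043) in mCherry cells alone past the threshold. Its mCherry dark and light values overlapped, and it did not pass in every fit that left out 1 library. The 29 members of complex I past in neither comparison include NDUFA7, whose changes of 1.42 ± 0.94 (adjusted p = 0.21) and -1.03 ± 0.74 (adjusted p = 0.25) have errors too wide to read.

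Complex II, or succinate dehydrogenase, links the tricarboxylic acid cycle to the chain, and in mCherry cells its members were called in both directions. SDHA, the flavoprotein that binds succinate, lies at chr5:218241-256700 (plus strand, GENCODE 29 on GRCh38). Its values were 4878, 5234 and 4908 in Cry2 dark and 3135, 3400 and 3101 in Cry2 light. In mCherry cells they were 5084, 4854 and 4788 in dark and 2973, 3442 and 3565 in light. All light libraries of engineered cells lay under all dark ones. SDHA fell by 0.64 ± 0.07 (adjusted p = 5.9e-07) in Cry2 cells and by 0.56 ± 0.08 (adjusted p = 2.3e-05) in mCherry cells. SDHAP1, a pseudogene close in sequence, stood at 268 ± 87 and 395 ± 34 in Cry2 dark and light and at 281 ± 22 and 496 ± 123 in mCherry dark and light (SD, n = 3); how reads were split between the copies was not tested.

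SDHB, the iron-sulfur subunit, changed by -0.13 ± 0.07 (adjusted p = 0.14) in Cry2 cells and by -0.08 ± 0.12 (adjusted p = 0.59) in mCherry cells. SDHC and SDHD are the membrane anchors that hold the quinone site. SDHC stood at 4739, 4529 and 4517 in mCherry dark and at 4969, 5192 and 5760 in mCherry light, without overlap, a rise of 0.21 ± 0.07 (adjusted p = 0.026). In Cry2 cells it changed by 0.10 ± 0.05 (adjusted p = 0.12). SDHD, the partner of SDHC in the membrane, went from 1814, 1930 and 1863 to 1526, 1225 and 1267 in mCherry cells, without overlap, a fall of 0.49 ± 0.14 (adjusted p = 0.0078). The Cry2 value was -0.29 ± 0.12 (adjusted p = 0.054), just short of the threshold.

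The make-up of complex II transcripts can also be read within a library, as shares of the 4 genes' summed reads. These shares still varied between libraries of 1 group: in mCherry light SDHB took 20.3% to 25.2%. SDHA made up 34.7 ± 0.53% of the summed reads of the 4 genes in Cry2 dark and 25.9 ± 1.9% in Cry2 light (SD, n = 3), and 33.8 ± 0.077% and 25.6 ± 0.85% in mCherry dark and light. SDHC went from 32.1 ± 0.56% to 40.1 ± 0.26% and from 31.6 ± 0.2% to 40.9 ± 0.89%. The groups did not overlap in any of these, and each gave p = 0.1 by an exact two-sided permutation test, the smallest that 3 against 3 allows (Benjamini-Hochberg adjusted permutation p = 0.25 over 28 shares tested). The shares of a library are parts of the same sum, so a fall of SDHA raises the SDHC share even where SDHC reads do not change. The SDHC rises and the SDHA falls in share are therefore not independent results. SDHC by its own reads passed in mCherry light but not in Cry2 light. The part of the SDHA fall in the SDHC share was not tested. In wt cells the SDHA share was 33.1 ± 0.94% in dark and 31.0 ± 0.37% in light, in GFP cells 33.9 ± 0.89% and 33.5 ± 0.88%. The wt groups did not overlap either, though their distance was 2.08 percentage points where the Cry2 distance was 8.80. The SDHC share was 31.7 ± 0.76% and 30.9 ± 2.4% in wt dark and light, which overlapped. In GFP cells it was 31.4 ± 0.53% and 32.4 ± 0.70%, without overlap, at the same exact permutation p = 0.1; that distance was 1.05 percentage points, against 7.98 in Cry2 and 9.24 in mCherry cells.

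In complex III, which passes electrons from quinone to cytochrome c, 3 of 9 genes were lower in Cry2 light (33.3%, near the 30.4% of all genes) and none passed in mCherry light. UQCRFS1, the Rieske iron-sulfur protein, went from 6173, 6204 and 6565 in Cry2 dark to 4584, 4770 and 5033 in Cry2 light, without overlap, a fall of 0.40 ± 0.08 (adjusted p = 0.00046). The mCherry libraries, 7346, 6184 and 6143 in dark and 4058, 5559 and 6452 in light, overlapped, with a change of -0.31 ± 0.14 (adjusted p = 0.07). UQCRH, the hinge protein, fell by 0.30 and CYC1, cytochrome c1, fell by 0.24 in Cry2 cells. The mCherry changes of UQCRH and CYC1 were -0.20 and -0.02. CYCS, the soluble cytochrome c that carries electrons on to complex IV and also takes part in apoptosis, fell by 0.28 ± 0.10 (adjusted p = 0.03) and by 0.23 ± 0.09 (adjusted p = 0.042).

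Complex IV, cytochrome c oxidase, held the largest called change of any standard subunit. COX7C, a small subunit that spans the membrane, lies at chr5:86617904-86620962 (plus strand). It stood at 16711, 17957 and 18078 in Cry2 dark and at 7631, 7055 and 8668 in Cry2 light. In mCherry cells the values were 19102, 17123 and 17373 in dark and 6959, 8636 and 10035 in light. Every light library of engineered cells was thus under every dark one. The fall was 1.18 ± 0.09 (adjusted p = 2.7e-08) in Cry2 cells and 1.08 ± 0.11 (adjusted p = 5.3e-07) in mCherry cells, with means 2.26-fold and 2.09-fold lower. In wt cells COX7C stood at 17629, 18021 and 18942 in dark and 17855, 22968 and 17942 in light, and the groups overlapped. In GFP cells the dark libraries (16168, 16335 and 16249) were all above the light ones (13141, 13739 and 14640), a change of -0.23 ± 0.11 (adjusted p = 0.29). The processed pseudogene COX7CP1 reached at most 72.3 in any library.

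COX5A, a subunit on the matrix side of the complex, fell by 0.55 ± 0.10 (adjusted p = 0.0002) in Cry2 cells, from 6788, 7020 and 7438 to 4502, 4931 and 5129, and by 0.38 ± 0.12 (adjusted p = 0.013) in mCherry cells. COX7A2, the isoform of subunit VIIa used outside muscle, moved the other way. It stood at 4228, 5316 and 5133 in Cry2 dark and 6180, 6326 and 6656 in Cry2 light, a rise of 0.39 ± 0.10 (adjusted p = 0.0044). In mCherry cells it went from 5117, 4420 and 4674 to 5787, 7268 and 8836, a rise of 0.60 ± 0.12 (adjusted p = 0.0007). Light and dark libraries did not overlap in either culture. NDUFA4 fell by 0.26 ± 0.10 (adjusted p = 0.033) in Cry2 cells, where the groups overlapped, and changed by 0.00 ± 0.13 (adjusted p = 0.98) in mCherry cells. The 7 members of complex IV past in neither, COX4I1, COX5B, COX6A1, COX6B1, COX6C, COX7B and COX8A, changed by -0.20 to 0.12 in Cry2 cells and by -0.05 to 0.33 in mCherry cells.

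**Figure D3:**
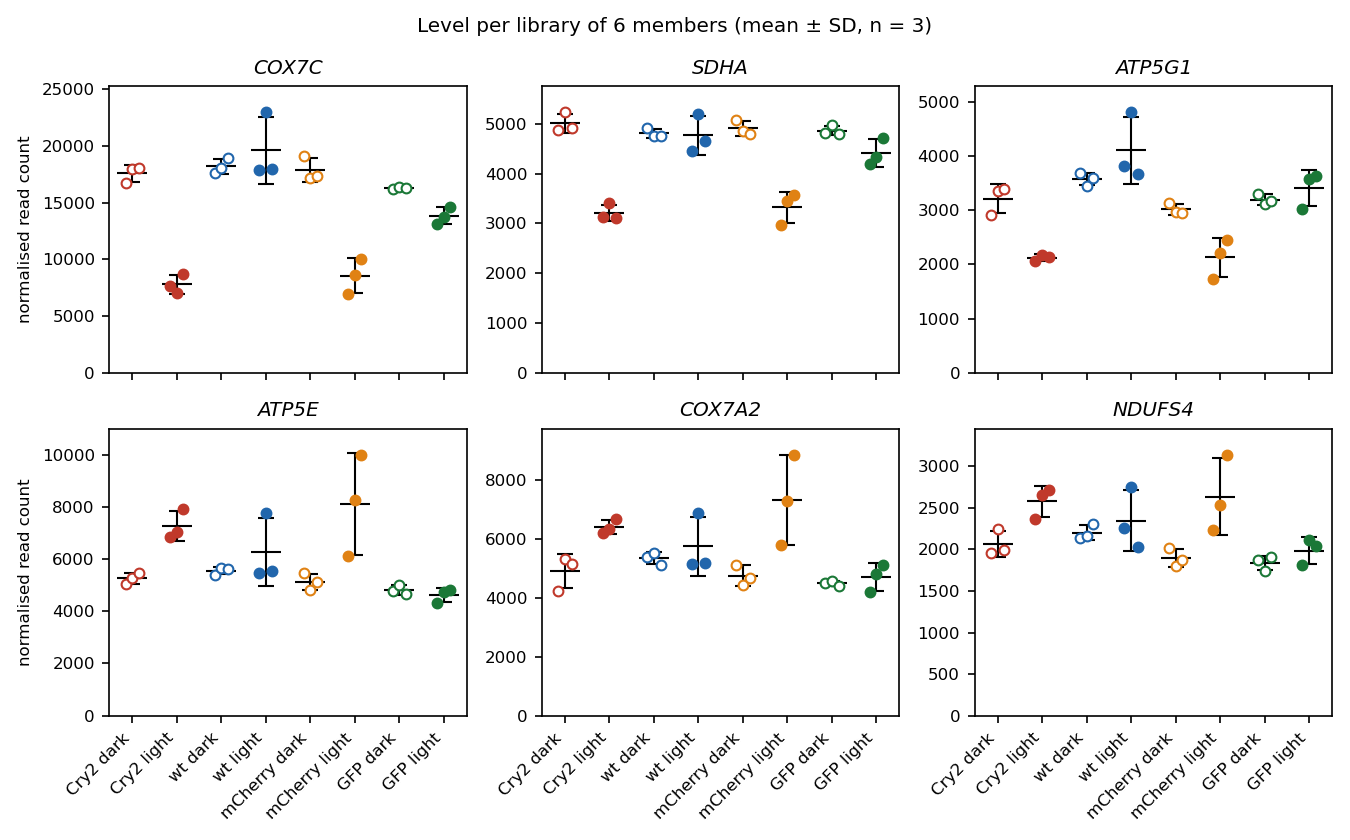
Normalised read count (y axis, from 0) of 6 members in every library of the 8 groups; open points are dark, filled points light, and black marks are the mean and SD (n = 3). COX7C, SDHA and ATP5G1 are lower in Cry2 light and mCherry light than in the matching dark libraries, and ATP5E, COX7A2 and NDUFS4 higher.

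In complex V, 2 of 15 genes were higher and 4 lower in Cry2 light (13.3% and 26.7%, all genes 28.1% and 30.4%), and 3 were higher and 1 lower in mCherry light (20% and 6.67%, all genes 27.2% and 28.7%). ATP5E (now ATP5F1E), the epsilon subunit of the central stalk, went from 5044, 5295 and 5463 to 6837, 7033 and 7909 in Cry2 cells, a rise of 0.46 ± 0.11 (adjusted p = 0.0015). In mCherry cells it went from 5454, 4830 and 5109 to 6105, 8255 and 9995, a rise of 0.63 ± 0.13 (adjusted p = 0.00074). Every light library was above every dark one of its culture. ATP5H (now ATP5PD), subunit d of the peripheral stalk, rose by 0.30 in Cry2 cells and by 0.30 in mCherry cells, where the groups overlapped. Exons of ATP5E and ATP5H share 23.2% and 19.1% of their bases with genes on the opposite strand, and whether the counting used strand is not stated. ATP5EP2, the retrocopy of ATP5E, stood at 10.5 ± 9.4 and 31.1 ± 15 in mCherry dark and light (SD, n = 3); reads of so close a copy are uncertain. ATP5J, coupling factor 6 of the peripheral stalk, rose by 0.21 in mCherry cells. ATP5A1 and ATP5B, the alpha and beta subunits of the catalytic head, fell by 0.27 ± 0.05 (adjusted p = 0.00048) and by 0.32 ± 0.06 (adjusted p = 0.0002) in Cry2 cells. Their mCherry changes were -0.17 and -0.15 and did not pass. ATP5I, subunit e, and ATP5S, outside the complex, fell by 0.29 and 0.37 in Cry2 cells.

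ATP5G1, ATP5G2 and ATP5G3 (now ATP5MC1 to ATP5MC3) code for the same mature protein, subunit c of the rotor ring, behind different import signals. ATP5G1 went from 2906, 3354 and 3390 in Cry2 dark to 2064, 2181 and 2138 in Cry2 light, a fall of 0.59 ± 0.09 (adjusted p = 4.2e-05). In mCherry cells it went from 3127, 2962 and 2959 to 1732, 2208 and 2449, a fall of 0.52 ± 0.11 (adjusted p = 0.0011). No light library reached the dark range in either culture. ATP5G2 changed by -0.12 and -0.02, and ATP5G3 by -0.03 and 0.15, none past the threshold. ATP5G1 made up 11.8 ± 0.57% of the reads of the 3 genes in Cry2 dark and 8.56 ± 0.19% in Cry2 light, and 11.3 ± 0.11% and 7.83 ± 0.064% in mCherry dark and light (SD, n = 3). In wt cells its share was 12.5 ± 0.37% and 13.0 ± 0.6%, and in GFP cells 11.9 ± 0.42% and 12.7 ± 0.56%, with overlapping groups. The engineered groups did not overlap, with p = 0.1 by the same exact permutation test, the smallest it can give.

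**Figure D4:**
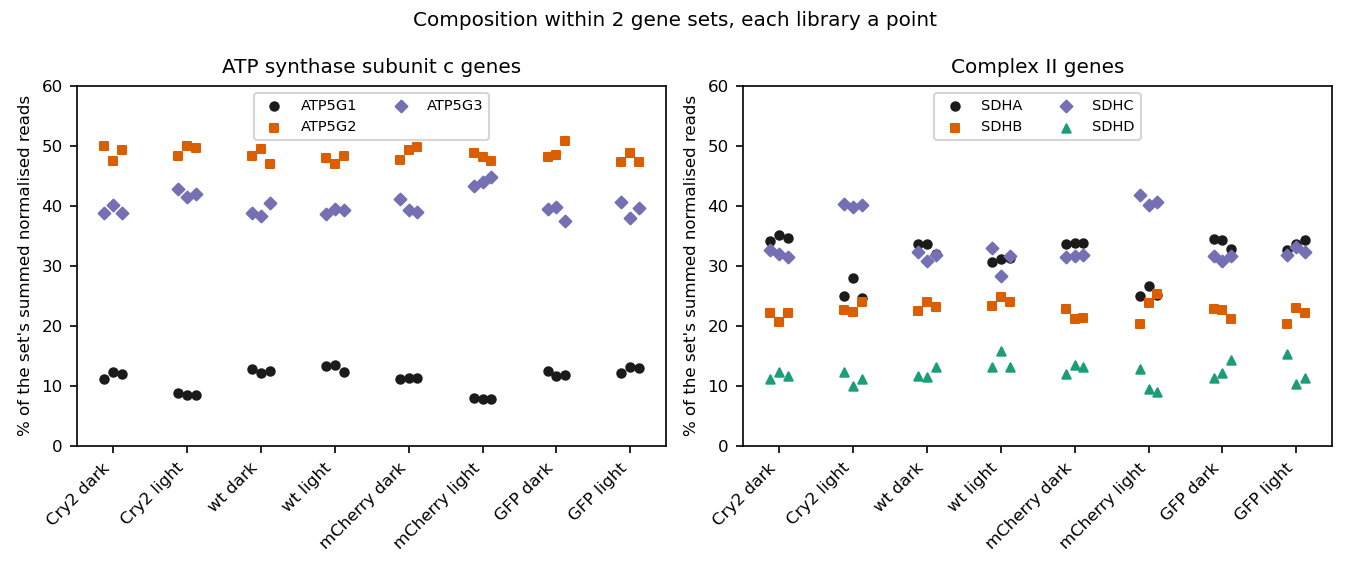
Percentage of the summed normalised reads of 3 subunit c genes (left) and of the 4 complex II genes (right) taken by each gene (y axis); each point is 1 library. The ATP5G1 and SDHA points are lower and the ATP5G3 and SDHC points higher in Cry2 light and mCherry light than in Cry2 dark and mCherry dark. Shares are not corrected for gene length, so only changes of 1 gene are to be compared. The share of a gene can also rise because another gene of its set falls.

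In wild-type cells no member passed. In wt cells 0 of 80 members passed by limma and by edgeR, and 1 by DESeq2, with 8 (10%) at an unadjusted p under 0.05. Of all genes 0.072% passed by limma and 13.2% were at an unadjusted p under 0.05. Their median change was 0.12 with all 3 wt light libraries and -0.01 without wt light 2. In GFP cells, neighbours of the engineered cells, 0 of 80 passed by limma, edgeR or DESeq2, with 5 (6.25%) at an unadjusted p under 0.05, and the median was 0.00. Of all genes 4.6% passed by limma and 16.5% were at an unadjusted p under 0.05. In the dark, 0 members passed between Cry2 and wt cells by limma and edgeR and 1 by DESeq2, with 5 at an unadjusted p under 0.05, where 3.6% of all genes passed by limma and 17.1% were at an unadjusted p under 0.05. Between mCherry and GFP cells in the dark 0 passed by any of these tools, with 0 at an unadjusted p under 0.05 (0.797% and 5.65% of all genes).

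The light effect was then compared between the lines in the same fit. In monoculture the effect in Cry2 minus that in wt was past the threshold and lower for 19 members and higher for 0 (25% and 22.8% of all genes); edgeR and DESeq2 each gave 21 lower and 0 higher. The largest were COX7C at -1.28 ± 0.13 (adjusted p = 1e-06), ATP5G1 at -0.78 ± 0.13 (adjusted p = 0.00013), COX5A at -0.63 ± 0.14 (adjusted p = 0.0015) and SDHA at -0.62 ± 0.09 (adjusted p = 5e-05). Without wt light 2, 18 were lower and 4 higher (27.5%, all genes 50.7%), and without wt dark 1 and Cry2 dark 3, 11 were lower and 0 higher (13.75%, all genes 42.2%). In co-culture the effect in mCherry minus that in GFP was lower for 3 members and higher for 4 (21% and 19.5% of all genes). The lower ones were COX7C at -0.85 ± 0.15 (adjusted p = 0.00035), ATP5G1 at -0.61 ± 0.16 (adjusted p = 0.0061) and SDHA at -0.42 ± 0.11 (adjusted p = 0.0074). The higher ones were ATP5E at 0.69 ± 0.19 (adjusted p = 0.0075), COX7A2 at 0.54 ± 0.18 (adjusted p = 0.022), NDUFB6 at 0.36 ± 0.12 (adjusted p = 0.028) and SDHC at 0.29 ± 0.10 (adjusted p = 0.038). Without mCherry light a, 22 were higher and 3 lower (31.25%, all genes 47.3%). Both kinds of cell were sorted out of mixed cultures, but the labels do not say which libraries share a culture, and the fit treats all of them as independent. COX7C, ATP5G1 and SDHA stayed lower in every fit of both cultures that left out 1 library. The rises of ATP5E, COX7A2 and NDUFS4 were less distinct from wild-type cells. With all libraries none of these rises differed from wt in monoculture, and NDUFS4 did not differ from GFP in co-culture. Only ATP5E stayed higher in every co-culture fit that left out 1 library.

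Genes around the chain were read in the same fits, with the Cry2 value first and the mCherry value second. Each list's count is to be read against all genes, of which 28.1% were higher and 30.4% lower in Cry2 light (58.4% either way) and 27.2% and 28.7% in mCherry light (55.9%). Of 9 tested isoforms and partners outside the naming rule, 2 were higher and 3 lower in Cry2 light, and 3 higher and 2 lower in mCherry light (55.6% past in each). COX6B2, the testis isoform of a complex IV subunit, fell from 91.7 ± 5.0 to 6.7 ± 1.6 and from 82.8 ± 8.2 to 9.2 ± 10 (SD, n = 3), log2 changes of -3.61 ± 0.25 (adjusted p = 7e-09) and -3.56 ± 0.54 (adjusted p = 4.5e-05). NDUFA4L2, a hypoxia-induced relative of NDUFA4, rose by 2.63 ± 0.54 (adjusted p = 0.00061) and by 2.91 ± 0.42 (adjusted p = 3e-05). Its levels were low, from 8.0 ± 7.8 to 43.4 ± 8.6 in Cry2 cells and from 6.5 ± 2.0 to 55.1 ± 12 in mCherry cells. In GFP cells it went from 1.9 ± 0.21 to 9.0 ± 4.5, a rise of 1.69 ± 0.42 (adjusted p = 0.033). That call was lost in 8 of 12 fits without 1 library. It was also lost with a pseudocount of 5, with no filter, and without both mCherry light c and GFP light c. ATPIF1, the inhibitor of ATP synthase run in reverse, fell by 0.46 and by 0.39.

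Of 46 assembly factors 8 were higher and 13 lower, then 5 and 13 (45.7% and 39.1% past, under all genes). NDUFAF7, a methyltransferase needed for complex I assembly, fell by 1.81 ± 0.06 (adjusted p = 6.9e-13) and by 1.92 ± 0.12 (adjusted p = 4.1e-09). It was also lower in GFP light, at -0.51 ± 0.12 (adjusted p = 0.029). That call was lost in 4 of those 12 fits, and without both mCherry light c and GFP light c. COX20 fell by 0.76 and 0.99 and TTC19 by 0.59 and 0.78, factors for complexes IV and III. SDHAF1, which helps to build SDHB, rose by 0.57 and 0.59, and BCS1L, which inserts UQCRFS1, by 0.49 and 0.52.

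Among 15 transcriptional regulators, 6 were higher and 4 lower, then 8 and 4 (66.7% and 80% past). PPARGC1A, a coactivator of mitochondrial biogenesis, fell from 102 ± 31 to 5.6 ± 2.1 and from 64.4 ± 6.6 to 6.3 ± 4.9 (SD, n = 3), log2 changes of -3.99 ± 0.33 (adjusted p = 5e-08) and -3.42 ± 0.47 (adjusted p = 1.8e-05). MYC fell by 1.03 and 0.92, and NRF1 rose by 0.59 and 0.52. GABPA (-0.10 and -0.11), YY1 (-0.08 and -0.11) and the mitochondrial transcription factor TFAM (-0.19 and -0.27) did not pass, and ESRRA passed in mCherry cells (0.25, lost in 9 of the 12 fits) but not in Cry2 cells (0.11). Of 13 genes for mitochondrial DNA maintenance and transcription 0 were higher and 9 lower, then 0 and 8, at medians of -0.41 and -0.42 (69.2% and 61.5% lower). Among them LRPPRC, which stabilises mitochondrial messenger RNA, fell by 0.59 and 0.70, and the helicase TWNK by 0.57 and 0.61. Of 75 mitochondrial ribosomal proteins 4 were higher and 24 lower, then 5 and 15 (37.3% and 26.7% past, under all genes).

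Of 23 import genes 2 were higher and 8 lower, then 1 and 8 (43.5% and 39.1% past). TOMM7, a small part of the outer membrane pore, fell by 0.96 and 0.87, and the chaperone HSPD1 by 0.82 and 0.83. In the tricarboxylic acid cycle 4 of 13 were higher and 2 lower, then 4 and 2 (46.2% past in each). SUCLG1, a subunit of the succinyl-CoA ligase that acts just before complex II, rose by 0.87 and 1.06, while its partner SUCLA2 fell by 0.55 and 0.52. Of 15 genes for pyruvate and lactate handling 6 were higher and 4 lower, then 5 and 4 (66.7% and 60% past). PDK1, the kinase that holds pyruvate out of the cycle, rose by 3.60 and 3.48, and SLC16A3, which exports lactate, by 5.45 and 5.40. In GFP light, where no respiratory chain member passed, PDK1 rose by 1.61 ± 0.10 (adjusted p = 2.7e-07), SLC16A3 by 2.27 ± 0.19 (adjusted p = 5.4e-06) and LDHA by 0.58 ± 0.10 (adjusted p = 0.0022). The lists' own shares are set beside that of all genes in the plot by list.

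**Figure D5:**
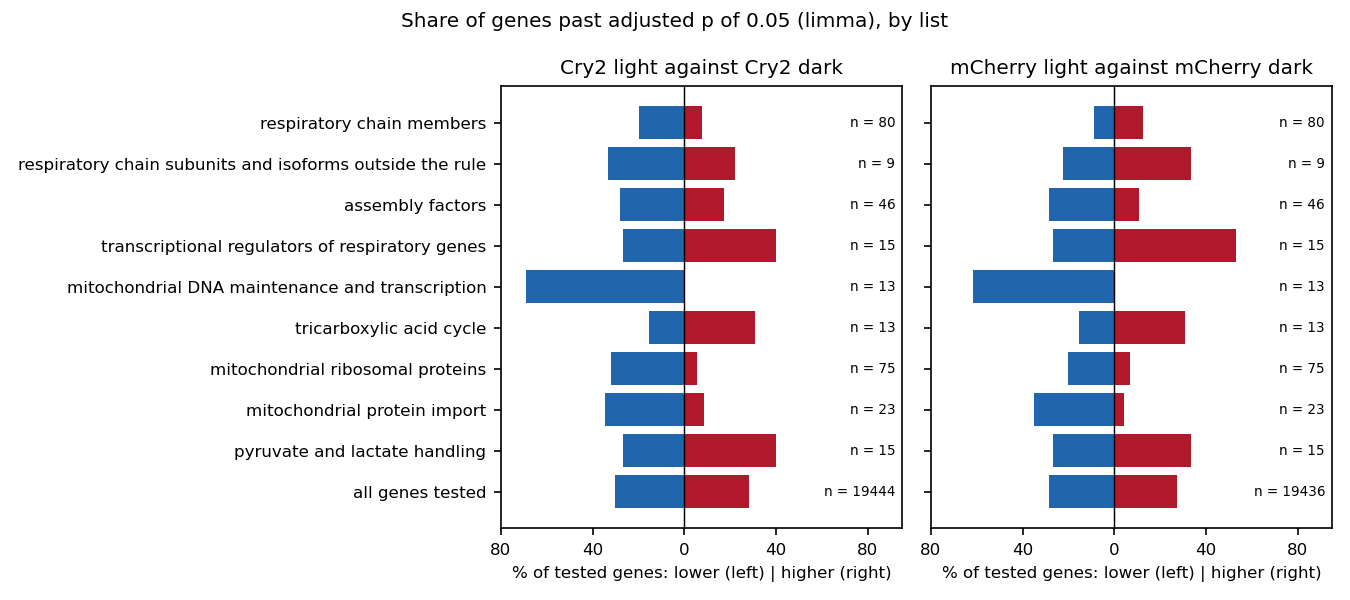
Percentage of tested genes that were higher (red, right) or lower (blue, left) in light with an adjusted p under 0.05 by limma, for the 80 respiratory chain members, 8 other mitochondrial lists and all genes tested, in Cry2 cells and mCherry cells; n is the number of genes tested. The members' bars are shorter than those of all genes in both panels, and the mitochondrial DNA list has no gene on the right.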

How the data were processed

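The authors deposited 1 table of normalised read counts for 24 libraries, a signal in which, after multiplication by 1 factor per library, 100.0% of values were whole within 0.01. Per the submitters' processing notes, FastQC, cutadapt, Bowtie2, STAR, HTSeq and DESeq were used, with GRCh38, while the authors' sample table, per the file headers, names hg19 plus 4 extra genes, with mitochondrial, ribosomal, transfer and repeat reads removed; mitochondrially encoded subunits were therefore not analysed here. The same deposited table gives the RNA integrity score, the GC percent and the counts of total reads, used here for the monoculture only, since its co-culture rows match a group but no single sample. Gene coordinates and exons come from GENCODE 29 (GRCh38) by Ensembl ID.

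Computed here with R 4.3.3: limma-trend 3.58.1 on log2(value + 1), keeping genes that reach 10 in 3 or more libraries, Benjamini-Hochberg threshold 0.05, fitted over 12 monoculture, 12 co-culture or all 24 libraries. The monoculture fit alone was also run on simulated counts. Those had the same spread for all genes and no shift of a gene set in single libraries, so they do not cover such shifts. edgeR 4.0.16 (quasi-likelihood) and DESeq2 1.42.0 on the recovered reads, TMM scaling, a pseudocount of 5, no filter, a 1.5-fold minimum, and left-out libraries were alternatives. Members and lists were chosen with earlier results of these data known. Values are given in full for up to 8 members per direction with the largest change per comparison and for paralogue sets; from other lists up to 4 genes per direction and 7 regulators. In the monoculture labels the genotype tags contradict the titles; titles were used, and the construct transcripts matched them. Co-culture columns carry no replicate number, so a, b and c follow column order. The values of 1 member are not reported here.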

Additional observations from a re-analysis of the deposited data

Results flagged for a closer look

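The members below are listed because their response to light differed between the lines, by the interaction term of limma with an adjusted p under 0.05 over all genes. In monoculture (Cry2 minus wt, log2) these were COX7C at -1.28, ATP5G1 at -0.78, COX5A at -0.63, SDHA at -0.62, SDHD at -0.58, UQCRFS1 at -0.53, NDUFA3 at -0.52, CYCS at -0.50, NDUFS6 at -0.49, UQCRH at -0.48, ATP5D and NDUFA5 both at -0.43, NDUFV3 and ATP5I both at -0.39, CYC1 at -0.38, NDUFA4 at -0.37, ATP5A1 at -0.35, ATP5B at -0.32 and SDHB at -0.26. Of these 19, NDUFS6, ATP5D, NDUFA5, SDHB and SDHD did not pass in Cry2 light against dark itself, and their wt changes (0.18, 0.24, 0.24, 0.13 and 0.29) include wt light 2, the library in which 74 of 80 members were the highest of their group. In co-culture (mCherry minus GFP) they were COX7C at -0.85, ATP5G1 at -0.61, SDHA at -0.42, SDHC at 0.29, NDUFB6 at 0.36, COX7A2 at 0.54 and ATP5E at 0.69. NDUFB6 passed in neither line on its own (0.17 in mCherry and -0.19 in GFP cells).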

How the results depend on the processing

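The members called in Cry2 light, mCherry light and the differences between lines had 1276 values under other settings, of which 1045 kept direction and threshold, 231 kept the direction but missed the threshold and none reversed. The 51 calls of genes named from other lists had 991, of which 952 kept both and 39 missed the threshold, none reversed. Named genes that did not pass were not followed in this way. Without wt dark 1 and Cry2 dark 3, lower members in Cry2 light went from 16 to 8 and in the monoculture difference between lines from 19 to 11. Without the shallow co-culture libraries (mCherry light c and GFP light c), mCherry light gave 4 higher and 14 lower (10 and 7 with all), and the co-culture difference 2 higher (4 with all). With a 1.5-fold minimum, Cry2 light gave 0 higher and 3 lower, mCherry light 3 higher and 1 lower, and the differences between lines 4 lower in monoculture and, in co-culture, 1 higher (ATP5E) and 2 lower (COX7C and ATP5G1). DESeq2 gave 1 higher in wt light and 1 lower between Cry2 and wt in the dark, where limma gave 0. Without wt light 2 and mCherry light a, chosen after seeing the data, 2 members were higher in the difference between mCherry and Cry2 effects.

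Leaving out each library in turn gave 4 to 8 higher and 11 to 28 lower in Cry2 light, 4 to 31 higher and 4 to 14 lower in mCherry light, 0 in wt light, 0 to 1 higher and 0 to 2 lower in GFP light (1 and 2 without mCherry light a), 0 to 5 lower between Cry2 and wt in the dark (5 without wt light 2, 1 without Cry2 light 1), 0 to 4 higher and 13 to 26 lower in the monoculture difference, and 1 to 22 higher and 3 to 4 lower in the co-culture difference. In the fits without mCherry dark b or c, mCherry light gave 4 higher, without mCherry light b 5, and without mCherry dark a 4 lower. In the co-culture difference, 2 were higher without mCherry dark c, mCherry light c, GFP dark a, GFP dark c, GFP light a or GFP light b, and 1 without mCherry dark b. The replicate block on the monoculture numbers left the counts at 6 and 16 in Cry2 light and at 0 and 19 in the difference. There SDHB was lost (adjusted p = 0.065 by limma) and another member gained. Of 18 same-number pairs 0 correlated over 0.1 (-0.061 to 0.058), and not every sample correlated best with its own number. With so few libraries per group these correlations cannot tell whether samples of the same number shared a preparation. In co-culture no paired analysis was possible because the columns carry no replicate number. Tests of NDUFA7, NDUFA13, NDUFV2 and ATP5EP2, all under 100, rest on few reads, and why their values were low was not tested.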
